A study of Mus musculus with 5 samples.

Results

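Interferon-induced genes are the genes that cells switch on when interferons reach them, and the 44 described here are those outside the guanylate-binding proteins and immunity-related GTPases, the interferon regulatory factors and the antigen presentation genes. Type I interferons signal through JAK1 and TYK2 to a complex that holds STAT2 and IRF9 and binds the interferon-stimulated response element (ISRE), and interferon-gamma signals through JAK1 and JAK2 to gamma-activated sites (GAS). The products sense viral nucleic acid, block viral RNA and protein, conjugate the ubiquitin-like protein ISG15, or shape nuclear bodies and the cell surface. Many of them are also transcribed at a low basal level in cells that have met no added interferon.

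The cells were Th2 cells grown from naive CD4+ CD62L+ spleen T cells of C57BL/6 mice, 6 to 8 weeks old by the study's methods. Activation through CD3 and CD28 lasted 3 days, in IL-4 (10 ng/ml) and an antibody that neutralises interferon-gamma, and expansion in IL-2 plus IL-4 took another 4 days. All 4 conditions shared this culture. The conditions were wild type (*Parp14*+/+), wild type with PJ34 (*Parp14*+/+ + PJ34), knockout of *Parp14* (*Parp14*-/-) and knockout with PJ34 (*Parp14*-/- + PJ34). PARP-14 is an ADP-ribosyltransferase that acts with STAT6, and PJ34, a small molecule, inhibits PARP enzymes as a class and was given at 10 µM by the labels and at 5 µM by the methods. RNA Polymerase II phosphorylated on serine 2 of its tail, the elongating form, was immunoprecipitated and sequenced, with 1 library per condition and an Input library.

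The deposited gene table holds 11608 rows. Each row gives an average peak height per library, which is the highest pile-up of fragments in each active region of the gene, averaged over its regions. An active region is a stretch of merged SICER intervals, and SICER intervals are the stretches of genome called enriched over Input. The authors brought the libraries to the same number of alignments, so heights are compared as deposited.

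Of the 44 genes, 17 had a row under their own name at their own mm9 locus. Another 14 names stood on a row of a different locus and were rejected, because names in the table are shifted where neither wild-type library had a SICER interval. Searching by coordinates instead found 36 of the 44 genes. The 19 found by coordinates alone comprised 15 genes with no interval in either *Parp14*+/+ library and 4 with one, which are *Xaf1*, *Herc6*, *Rnf213* and *Znfx1*. For 8 genes there was no row: *Ifit1*, *Ifit3*, *Oas1a*, *Rsad2*, *Ifi204*, *Ifi44*, *Gvin1* and *Phf11*, and no interval of any of the 4 libraries overlapped them. The choice of rows therefore depends on the *Parp14*+/+ intervals when names are used: a gene kept by position that lacks such an interval can only be called lower in *Parp14*+/+, never higher. Of the 17 rows found by name, 15 had an interval in a *Parp14*+/+ library. Results are given for the 17 and for the 36. The genes were also chosen with earlier results of these data known, so their counts are descriptions.

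Most markers of T cells and Th2 cells with a row carried polymerase at the gene. The exceptions were the Th2 marker *Ccr8* and the T cell marker *Cd3g*. No interval of any library had its summit at either gene or within 1000 bases of it. All 8 Th2 markers, led in height by *Gata3*, had an interval in at least 1 library. So did all 5 of the T cell markers with a row and all 3 of the Th1 markers with a row. *Cd8a* had none. The summed height of the Th2 markers was 253, 227, 169 and 138 in wild type, wild type with PJ34, knockout and knockout with PJ34, so it was lower in the knockout, and *Il4*, *Il5* and *Il13* were called higher in wild type in both genotype pairs by the rule for calls given with the ratios. The list was not uniform: *Il1rl1* had heights of 6, 8, 12 and 9 and was called lower in wild type without PJ34. A summit lay at *Il1rl1* or within 1000 bases of it only in *Parp14*+/+ (6) and *Parp14*-/- + PJ34 (9). The untreated ratios of *Ccr4* and *Maf* were 1.00 and 1.06. The 3 Th1 markers summed to 87, 67, 72 and 56, and the 5 T cell markers to 46.5, 60.5, 47.5 and 39.5. The part of these differences in the values of the interferon-induced genes was not tested. Of 4 B cell markers only *Cd79a* had an interval, and no interval had its summit at that gene or within 1000 bases of it. Summed over the 4 B cell markers the peak height was 52.3 in wild type, 48 with PJ34 added, 46 in the knockout and 40.3 in the knockout with PJ34, with *Cd79a* the highest and *Cd79b*, *Ms4a1* and *Blk* without an interval. Of 6 myeloid markers 2 had a row, with a summed height of 9, 12.5, 6 and 7.5 in the same order of libraries. *Csf1r* was the higher of the pair. The B cell and myeloid sums were both lower in *Parp14*-/- than in *Parp14*+/+. No NK marker had a row.

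SICER intervals lay at more of the 36 genes in the knockout libraries than in the wild-type ones, though the 17 found by name differed little. An interval lay in an active region of 15 of the 36 genes in wild type (41.7%), of 18 in wild type with PJ34 (50%), of 20 in the knockout (55.6%) and of 26 in the knockout with PJ34 (72.2%). The 17 genes found by name had 14, 14, 15 and 16 intervals and the 19 found by position alone had 1, 4, 5 and 10. Of these 19, 15 had no interval in either wild-type library, the rows in which names are shifted, so the low wild-type counts of the 19 follow from how they were set apart and are no result. The whole table ran the other way: the share of all rows with an interval was 61.2%, 60.1%, 52.7% and 50.2% in the same order of libraries. SICER intervals covered 154.3, 179.2, 207.2 and 232.6 kb of the 36 genes, again in that order. Over all rows the covered length was 73907.5, 59892.0, 53632.4 and 47459.0 kb. The covered length was longer in *Parp14*-/- than in *Parp14*+/+ for 14 of the 19 genes with an interval in either, where the share over all rows was 23.5%. With PJ34 it was longer in the knockout for 20 of 26, where the share over all rows was 28.5%. Of these 26 genes, 7 had no interval in either wild-type library and so could only be longer in the knockout. Over all rows that held for 249 of 6535. Without PJ34 it held for 2 of the 19 genes. Because these are bulk cultures, more polymerase per cell and more cells that carry it cannot be told apart.

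Without PJ34, peak heights leaned towards the knockout. Of the 36 genes, 27 had a *Parp14*+/+ to *Parp14*-/- ratio of heights below 1, 5 had one above 1 and 4 were equal, and the median ratio was 0.746. Over all rows 42.8% of ratios lay below 1 and 46.4% above, and the median was 1.00. A gene was called where the ratio was above 1.4 or below 0.7 and the higher library had an interval, as in the first tier of the study's methods. By this rule 8 of the 36 genes were lower in *Parp14*+/+, namely *Isg15*, *Samhd1*, *Xaf1*, *Trim21*, *Daxx*, *Ifih1*, *Ddx58* and *Trim25*, and none was higher. The summit behind the *Daxx* height lies outside that gene, where the ratio of summits at the gene was 1.19, and no *Parp14*-/- interval overlapped *Ddx58*. The share of all rows called lower was 6.65%, and that called higher was 8.16%. Among the 17 rows found by name, 15 ratios were below 1, the median was 0.818, 5 genes were called lower and none higher. Without asking for an interval, 14 of the 36 genes had a ratio below 0.7 and none had one above 1.4, against 13.3% and 14.1% of all rows. The 17 genes without an interval in either *Parp14*+/+ library had a median ratio of 0.75, beside 1.00 over the 3637 rows of that kind. There is no replicate of any library, so these counts describe these libraries and have no p-value.

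In the pair treated with PJ34 the heights of the 36 genes were split evenly around a ratio of 1, where those of all rows lay mostly above it. Between the genotypes with PJ34 the 36 genes had a median wild-type to knockout ratio of 1.00, with 16 genes above 1 and 16 below. All rows had a median of 1.13, with 60.3% of ratios above 1 and 29.9% below. *Ifi35* was called higher in the wild type, where the share of all rows was 14.6%. *Isg15*, *Ifih1*, *Herc6* and *Rtp4* were called lower, where that share was 3.38%. The *Parp14*-/- + PJ34 summit behind the *Ifih1* call lies outside its row, and the ratio of summits at the gene was 1.25. Without asking for an interval, 5 of the 36 genes were above 1.4 and 4 below 0.7, beside 22.9% and 7.93% of all rows. The 17 rows found by name had a median of 1.05, with 1 call in each direction. Relative to the median of all rows the 17 had a median of 0.926 with 11 ratios below 1.

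The wild-type library without PJ34 was the lowest of the 4 more often than any other library. It was lower than each of the other libraries for 19 of the 36 genes (52.8%), beside 18.4% of all rows. *Parp14*+/+ + PJ34 was the lowest for 2 genes, beside 12.9% of all rows, *Parp14*-/- for 3, beside 18.1%, and *Parp14*-/- + PJ34 for 5, beside 30.7%. Both knockout values were above both wild-type values for 8 of the 36 genes (22.2%), beside 10.5% of all rows. Both wild-type values were above for *Ifi35* alone, beside 23.1%. The 8 were *Isg15*, *Samhd1*, *Adar*, *Ifih1*, *Ddx58*, *Trim21*, *Cd274* and *Rtp4*. At *Ifih1* itself the summits overlapped, with 7 and 15 in wild type and 12 and 12 in the knockout. No *Parp14*-/- interval overlapped *Ddx58*, and *Cd274* had 23 and 23 against 24 and 28. Libraries with and without PJ34 are not replicates of a genotype, so these counts are of order only. *Parp14*+/+ was the highest library for *Dhx58* alone, which had heights of 8, 6.5, 6.5 and 5.5 in *Parp14*+/+, *Parp14*+/+ + PJ34, *Parp14*-/- and *Parp14*-/- + PJ34. Every set of 4 values given for a gene follows this order of libraries.

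The 2 comparisons with PJ34 within a genotype share a library with the untreated genotype pair, so they are not separate evidence. Within *Parp14*+/+ the untreated to PJ34 ratio had a median of 0.773 over the 36 genes, with 29 ratios below 1 and 4 above, beside a median of 0.96, 52% below 1 and 37.4% above over all rows. *Trim25*, *Rnf213* and *Herc6* were called higher with PJ34 there, where 6.82% of all rows were, and none was called lower with PJ34, where 4.62% were. Without asking for an interval, 10 were below 0.7 and none above 1.4, beside 13.9% and 8.93% of all rows. Within *Parp14*-/- the median was 1.05, beside 1.07 over all rows, with 18 ratios above 1 and 16 below, where 53.8% and 34.4% of all rows were. *Daxx* and *Xaf1* were called lower with PJ34, where 8.42% of all rows were. *Oasl2*, *Herc6*, *Rnf213* and *Pml* were called higher with PJ34, where 2.95% of all rows were. At *Pml* itself the tallest summits ran the other way, with 10 in *Parp14*-/- and 6 in *Parp14*-/- + PJ34. Without asking for an interval, 4 were above 1.4 and 5 below 0.7, beside 16.2% and 8.86% of all rows.

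**Figure D1:**
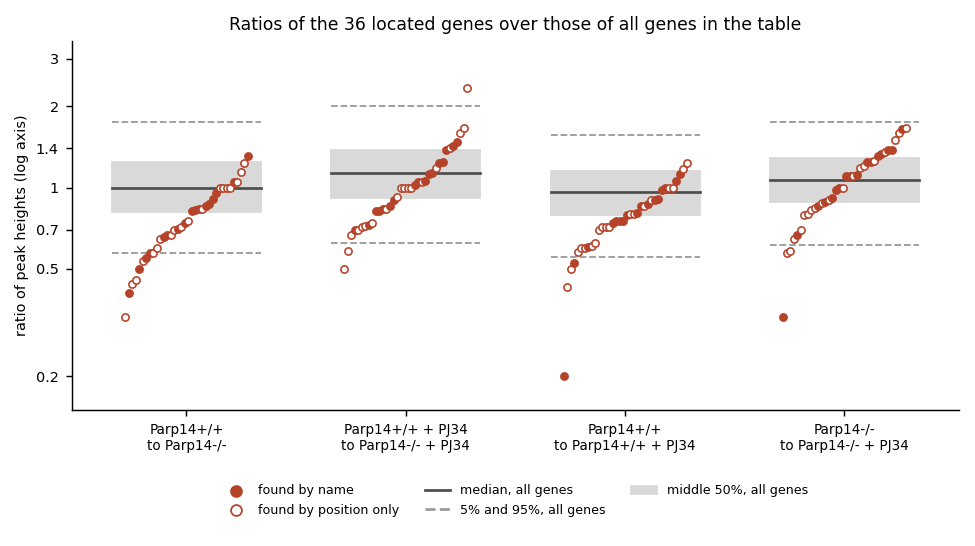
Ratios of average peak height (log axis) of the 36 located genes in the 4 pairs of libraries, sorted within each pair, with filled points for the 17 genes found by name and open points for those found by position alone. The grey box spans the middle 50% of all rows of the gene table, the solid line is their median and the dashed lines are their 5% and 95% points. In the *Parp14*+/+ to *Parp14*-/- pair the points lie mostly under the line at 1.00, and no gene reaches 1.4.

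The ISRE and GAS letters were counted in the promoters of the genes. The ISRE letters searched were GAAANNGAAA on either strand (TTTCNNTTTC on the other), with overlapping matches counted apart, and the GAS letters were TTCNNNGAA, which read the same on both strands. From 250 bases before to 50 bases after the start annotated in GENCODE vM1 on NCBIM37 (the assembly of mm9), 21 of the 44 promoters held the ISRE letters (47.7%), beside 846 of 22380 protein-coding genes (3.78%). The GAS letters were found in 9 of the 44 (20.5%), beside 7.94% of all. From 1000 bases before to 100 after, 27 held the ISRE letters (61.4%, beside 14.3%) and 16 the GAS letters (36.4%, beside 29.6%). Of the 36 genes with a row, 15 held the ISRE letters in the shorter window and 21 did not.

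The printed promoters belong to the 4 genes with the highest mean peak height among those 15, which were *Ifih1*, *Bst2*, *Rnf213* and *Zbp1*, and to *Isg15*, added after its values were seen because its polymerase summits fall at the promoter. They are read 5′ to 3′ along the gene, with the GAAA and TTTC blocks of the ISRE letters in capitals. Each is the 170 bases before the start, except that of *Ifih1*, whose letters begin 32 bases after the start and are shown within 30 bases.
Isg15, chr4:155574928-155575097, minus strand: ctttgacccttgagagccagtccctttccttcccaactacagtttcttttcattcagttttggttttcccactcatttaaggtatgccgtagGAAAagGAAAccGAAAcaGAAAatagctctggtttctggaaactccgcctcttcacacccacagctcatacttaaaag
Zbp1, chr2:173044425-173044594, minus strand: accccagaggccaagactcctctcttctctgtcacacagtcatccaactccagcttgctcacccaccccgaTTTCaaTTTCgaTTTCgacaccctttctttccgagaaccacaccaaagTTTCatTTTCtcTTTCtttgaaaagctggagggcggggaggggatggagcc
Rnf213, chr11:119254244-119254413, plus strand: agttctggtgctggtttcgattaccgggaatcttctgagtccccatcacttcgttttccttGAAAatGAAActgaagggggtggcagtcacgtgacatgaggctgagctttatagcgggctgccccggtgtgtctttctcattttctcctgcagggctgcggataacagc
Bst2, chr8:74061337-74061506, minus strand: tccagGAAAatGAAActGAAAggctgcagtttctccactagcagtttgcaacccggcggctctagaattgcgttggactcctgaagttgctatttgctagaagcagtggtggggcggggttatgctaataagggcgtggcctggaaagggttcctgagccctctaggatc
Ifih1, chr2:62484263-62484292, minus strand: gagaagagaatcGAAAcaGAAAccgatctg
*Isg15* carries 4 GAAA in a row, which make 3 overlapping matches beginning 78 bases before the start. In *Zbp1* there are 4 matches on the other strand, beginning 99 bases before the start, in 2 blocks. *Bst2* has 2 overlapping matches that begin 165 bases before the start, and *Rnf213* has 1 that begins 109 bases before it.

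Genes with and without the ISRE letters had close median ratios. The median *Parp14*+/+ to *Parp14*-/- ratio was 0.742 over the 15 genes with the ISRE letters and 0.75 over the 21 without. Of these, 4 and 4 were called lower in *Parp14*+/+. Over the 363 other rows of the table with the ISRE letters at their own start, the median was 1.00, and 10.5% were called lower in *Parp14*+/+ and 6.06% higher. Over the 11209 other rows without the letters, 6.43% were called lower and 8.2% higher, with a median of 1.00. The 773 other rows with the GAS letters had 10.2% called lower and 6.86% higher. These are descriptions of letters, and no binding of any factor was measured.

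**Figure D2:**
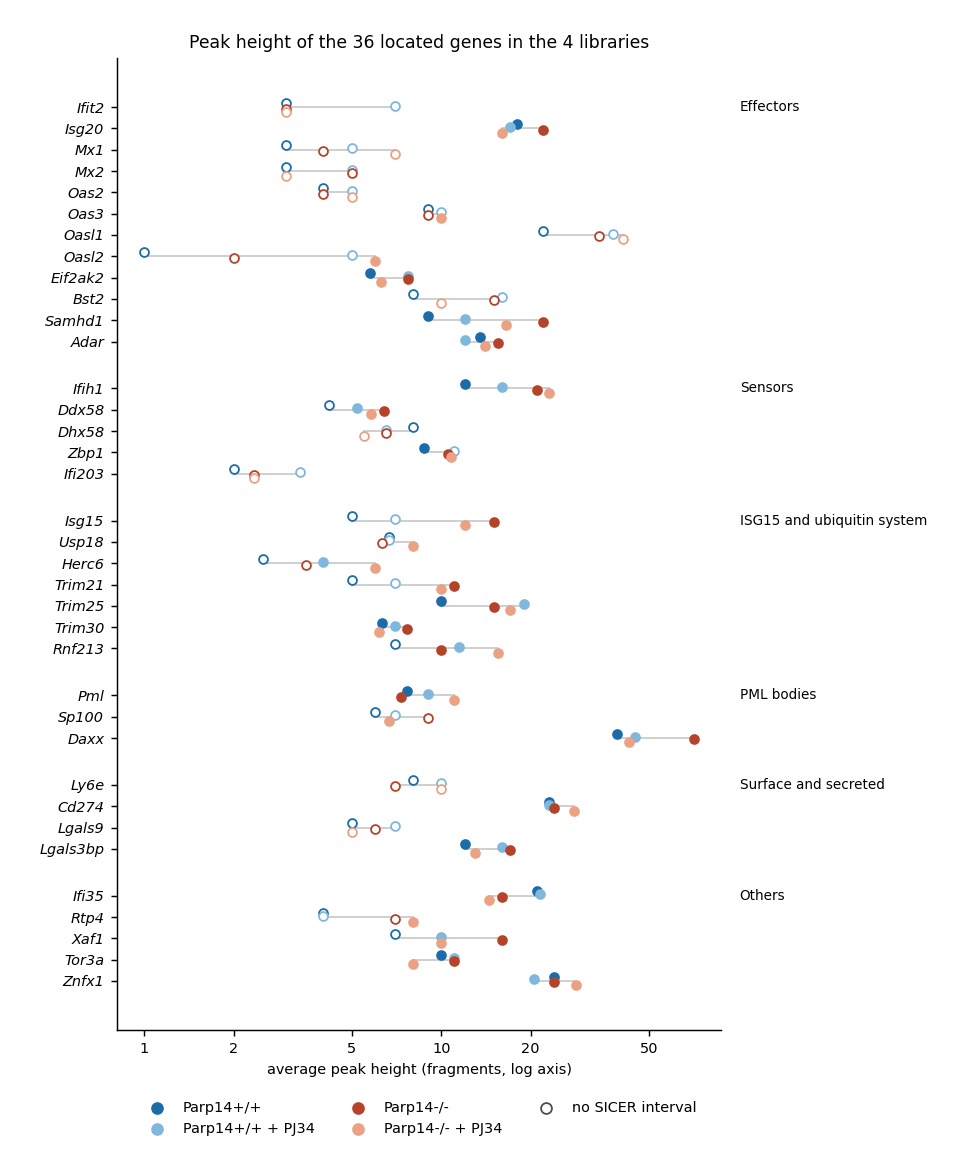
Average peak height (fragments, log axis) of the 36 located genes in the 4 libraries, grouped by role, with filled points where the gene's active regions held a SICER interval in that library and open points where they did not. The *Parp14*+/+ points are the lowest for 19 of the 36 genes, and the knockout libraries have more filled points among the genes of the ISG15 and ubiquitin system.

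In the ISG15 and ubiquitin system, *Isg15*, *Trim21* and *Trim25* were called lower in *Parp14*+/+ without PJ34, and *Isg15* and *Herc6* with PJ34. ISG15 is a ubiquitin-like modifier, HERC6 is its mouse ligase, USP18 removes it, and TRIM21, TRIM25, TRIM30 and RNF213 carry the RING domain of ubiquitin ligases. Of the 7 genes, 6 had a ratio below 1 without PJ34 and 5 with PJ34, with medians of 0.7 and 0.742. Over all rows 6.65% and 3.38% were called lower, and 42.8% and 29.9% of ratios were below 1. An interval was present for 2, 4, 5 and 7 of the 7 genes in the 4 libraries, in order, beside 61.2%, 60.1%, 52.7% and 50.2% of all rows. Covered length summed to 22.8, 32.0, 35.9 and 52.4 kb.

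*Isg15* (mm9, chromosome 4, minus strand, 155573561 to 155574905, 1345 bp) had heights of 5, 7, 15 and 12. Both knockout libraries were thus above both wild-type ones. The *Parp14*+/+ to *Parp14*-/- ratio was 0.333 (95% interval 0.0948 to 0.965) and the ratio with PJ34 was 0.583 (0.195 to 1.61). These intervals, like those that follow, are exact Clopper-Pearson limits on heights summed over active regions, and they cover counting error only. No interval lay at the gene in either wild-type library. In *Parp14*-/- an interval of 4800 bp spanned the whole gene with its summit 41 bases after the start. In *Parp14*-/- + PJ34 the summit lay 167 bases before the start, inside the printed promoter.

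*Trim21*, which encodes a cytosolic antibody receptor and ubiquitin ligase, had heights of 5, 7, 11 and 10. It had an interval in the knockout libraries alone, with summits 5551 and 5535 bases after the start. The ratio was 0.455 (0.124 to 1.42) without PJ34 and 0.7 (0.226 to 2.04) with PJ34. The wild-type and knockout values of *Isg15* and *Trim21* did not overlap, but the interval of the *Trim21* ratio holds 1 in both pairs.

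*Trim25*, a ligase that acts on RIG-I, had heights of 10, 19, 15 and 17, and only *Parp14*+/+ stood apart. The tallest summit lay within 100 bases of the start in every library: 54, 70, -10 and -26 bases from it. The ratio was 0.667 (0.268 to 1.59) without PJ34 and 1.12 (0.55 to 2.29) with PJ34, and that of untreated to PJ34-treated wild type was 0.526 (0.219 to 1.19). The covered length went against the heights at this gene, with 17506 bp in *Parp14*+/+ and 13756 bp in *Parp14*-/-.

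For *Rnf213*, the row covers part of the gene that includes its start. Its heights were 7, 11.5, 10 and 15.5. The ratio was 0.7 (0.327 to 1.46) without PJ34 and 0.742 (0.413 to 1.31) with PJ34, neither past the threshold. The row had no overlapping interval in *Parp14*+/+, and in the other libraries, in order, the tallest interval had heights of 15, 12 and 24, with summits at -30, 242 and -14 bases from the start. The height was higher with PJ34 past the threshold within both genotypes, with untreated to PJ34 ratios of 0.609 (0.29 to 1.23) and 0.645 (0.349 to 1.17), whose intervals hold 1.

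Of the remaining genes of this group, none was called in the untreated genotype pair. *Herc6* had heights of 2.5, 4, 3.5 and 6, with intervals in the 2 libraries with PJ34. Its untreated to PJ34 ratio was 0.625 in *Parp14*+/+ and 0.583 in *Parp14*-/-. *Usp18* had heights of 6.67, 6.67, 6.33 and 8, and an interval in *Parp14*-/- + PJ34 alone, with a summit of 14 at 10 bases after the start. Its ratios were 1.05 (0.533 to 2.08) and 0.834 (0.437 to 1.57). *Trim30*, spread over 6 active regions, had heights of 6.33, 7, 7.67 and 6.17 and ratios of 0.825 (0.523 to 1.3) and 1.13 (0.712 to 1.82).

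**Figure D3:**
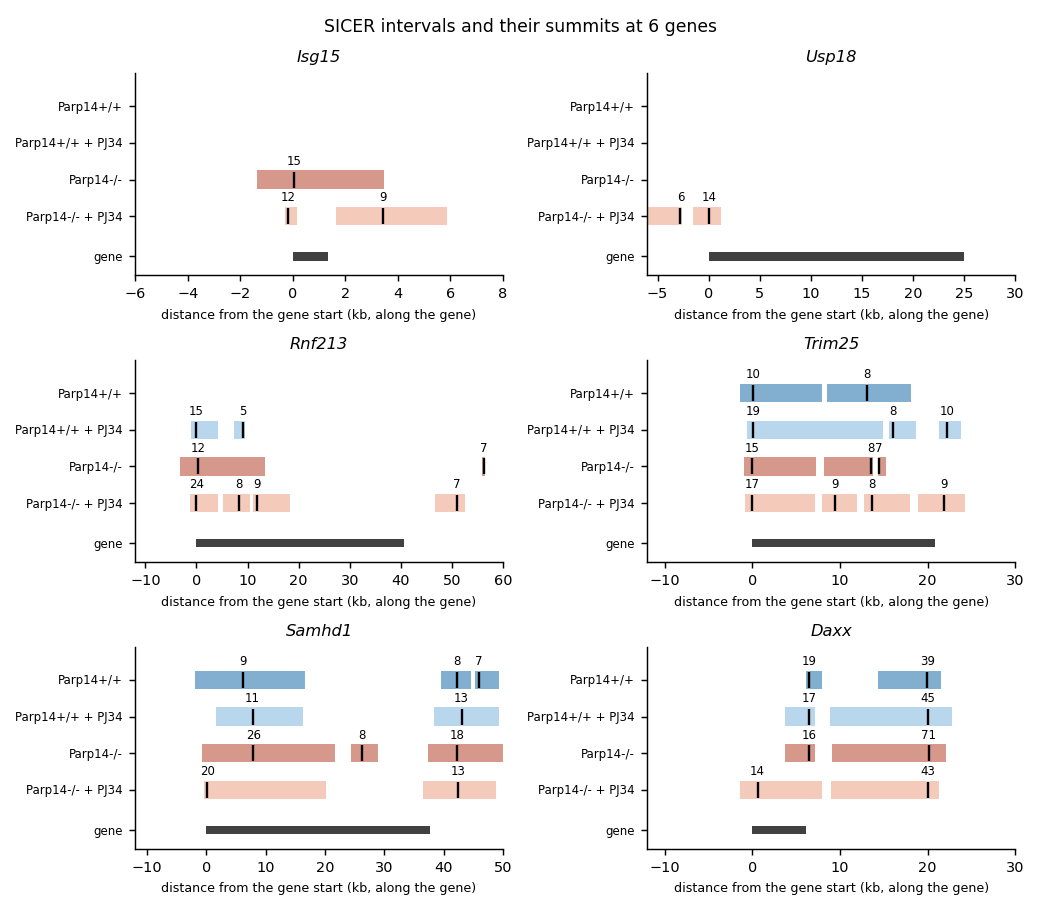
SICER intervals (bars) at 6 genes in the 4 libraries, by distance from the gene start in kb along the gene, with each summit as a tick and its height beside it. *Isg15* has intervals in the knockout libraries alone, *Usp18* has one at its start in *Parp14*-/- + PJ34 alone, the tallest summit of *Trim25* lies at its start in each library, and the highest summit of the *Daxx* row lies 19989 to 20117 bases from the start of a gene of 6092 bp.

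Among effectors that act on viral RNA, protein or entry, 12 of 16 genes had a row. The median ratio was 0.746 without PJ34 and 1.00 with PJ34, and 9 and 5 of the 12 ratios lay below 1, beside 42.8% and 29.9% of all rows. Within *Parp14*+/+, 10 of the 12 were lower without PJ34, with a median ratio of 0.671, beside 52% and 0.96 over all rows. *Samhd1* was the only gene called between genotypes, which is 8.33% of the 12 and near the 6.65% of all rows called lower.

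*Samhd1* (gene identifier 56045) encodes a dNTP hydrolase that limits reverse transcription and occupies 156923265 to 156960958 of chromosome 2 (mm9, minus strand). Its heights were 9, 12, 22 and 16.5, so both knockout values were above both wild-type values. The ratio was 0.409 (0.222 to 0.723) without PJ34, an interval that does not hold 1, and 0.727 (0.411 to 1.27) with PJ34. No other gene of the table shares its 2 active regions. The tallest interval over the gene had heights of 9, 11, 26 and 20, and intervals covered 16709, 14700, 26594 and 21344 bp of it.

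*Eif2ak2*, which encodes the RNA-activated kinase PKR, had heights of 5.75, 7.75, 7.75 and 6.25, with ratios of 0.742 (0.413 to 1.31) and 1.24 (0.709 to 2.19). *Adar*, the RNA-editing deaminase, had 13.5, 12, 15.5 and 14, with ratios of 0.871 (0.5 to 1.51) and 0.857 (0.476 to 1.53). *Isg20*, an RNA exonuclease, had 18, 17, 22 and 16, with ratios of 0.818 (0.414 to 1.6) and 1.06 (0.505 to 2.25), and its tallest summit lay 880 to 1424 bases before the start. None of these ratios was past a threshold. At *Isg20* and within 1000 bases of it the tallest summits were 18, 11 and 6 in *Parp14*+/+, *Parp14*+/+ + PJ34 and *Parp14*-/-. *Oas3*, an oligoadenylate synthetase, had 9, 10, 9 and 10, and *Oasl2*, a relative of that family, had 1, 5, 2 and 6, both with an interval in *Parp14*-/- + PJ34 alone.

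The other effectors had no interval in any of the 4 libraries, so their active regions were set by the other libraries of the table, which are of B cells. *Ifit2*, *Mx1*, *Mx2* and *Oas2* ranged from 3 to 7. *Bst2*, which tethers budding virions, had 8, 16, 15 and 10, and *Oasl1* had 22, 38, 34 and 41. The ratios of *Oasl1* were 0.647 (0.361 to 1.14) and 0.927 (0.58 to 1.48). For *Bst2* and *Oasl1* the *Parp14*+/+ value was the lowest of the 4.

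Sensors of viral nucleic acid were represented by 5 rows of 6 genes, with median ratios of 0.833 and 1.02. *Parp14*+/+ was the lowest library for all of them but *Dhx58*. *Ifih1*, which encodes the double-stranded RNA sensor MDA5, had heights of 12, 16, 21 and 23 and was called lower in the wild type in both pairs, with ratios of 0.571 (0.256 to 1.22) and 0.696 (0.343 to 1.38). Its row has a summit 66010, 62138 and 60730 bases from the row's start in *Parp14*+/+, *Parp14*-/- and *Parp14*-/- + PJ34, beyond the end of the 53576 bp row in a region shared with another gene. Inside the row and within 1000 bases of it the tallest summits were 7, 15, 12 and 12. The order of the libraries with PJ34 was then turned, while *Parp14*+/+ stayed the lowest.

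*Ddx58*, the gene of RIG-I, had heights of 4.2, 5.2, 6.4 and 5.8 over 5 active regions, with ratios of 0.656 (0.36 to 1.17) and 0.897 (0.507 to 1.58). Its call in *Parp14*-/- rests on an interval in a shared region, since no interval of that library overlapped the gene. *Zbp1*, a sensor of Z-form nucleic acid, had 8.75, 11, 10.5 and 10.75, with ratios of 0.833 (0.517 to 1.34) and 1.02 (0.657 to 1.6). *Ifi203* had heights of 2, 3.33, 2.33 and 2.33 and, like *Dhx58*, no interval.

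PML bodies are nuclear bodies built on PML, to which SP100 and DAXX are recruited. *Daxx* had heights of 39, 45, 71 and 43, with a ratio of 0.549 (0.362 to 0.823) without PJ34 and 1.05 (0.674 to 1.63) with PJ34, and *Parp14*-/- was the library that stood apart. This height is not at *Daxx*. The row's single active region holds 4 other rows, and its highest summits of 39, 45, 71 and 43 lie 19989 to 20117 bases from the start of a gene of 6092 bp. At the gene and within 1000 bases of it the tallest summits were 19, 17, 16 and 14, a *Parp14*+/+ to *Parp14*-/- ratio of 1.19. *Pml* had 7.67, 9, 7.33 and 11, with ratios of 1.05 (0.557 to 1.97) and 0.818 (0.473 to 1.4), and its covered length was 1695, 2401, 8701 and 13951 bp. Its tallest summits at the gene or within 1000 bases were 6, 10 and 6 in *Parp14*+/+, *Parp14*-/- and *Parp14*-/- + PJ34. *Sp100* had 6, 7, 9 and 6.67, with ratios of 0.667 (0.346 to 1.26) and 1.05 (0.542 to 2.04), and an interval in *Parp14*-/- + PJ34 alone.

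**Figure D4:**
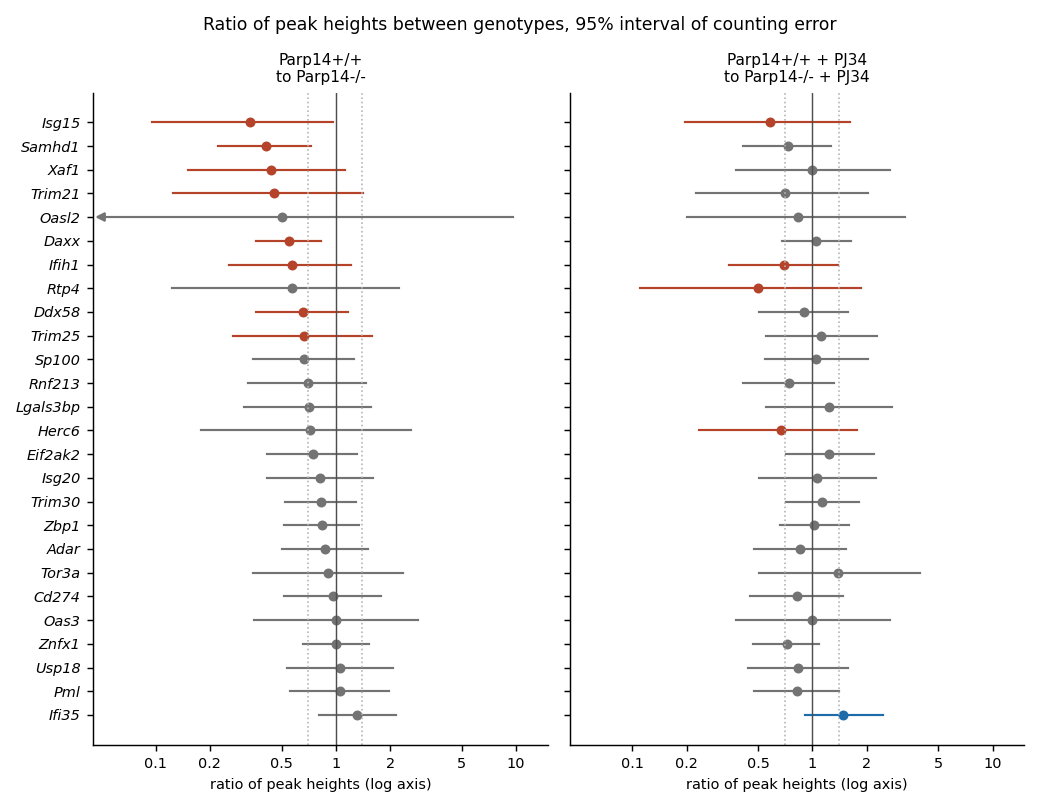
Ratio of average peak heights (log axis) with its 95% interval of counting error for the 26 genes with an interval in at least 1 library, *Parp14*+/+ to *Parp14*-/- on the left and *Parp14*+/+ + PJ34 to *Parp14*-/- + PJ34 on the right, sorted by the left panel. Red marks genes called lower and blue genes called higher in the wild type, the dotted lines stand at 0.7 and 1.4, and the arrow marks an interval that runs past the axis. On the left the intervals of *Isg15*, *Samhd1* and *Daxx* lie wholly below 1.

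Of surface and secreted proteins, no gene was called in a genotype pair. *Cd274*, which encodes the checkpoint ligand PD-L1, was covered over its whole length of 20641 bp in every library. Its heights were 23, 23, 24 and 28, with ratios of 0.958 (0.517 to 1.77) and 0.821 (0.452 to 1.48), so a difference was not detectable at this depth. *Lgals3bp*, a secreted galectin-3 binding protein, had heights of 12, 16, 17 and 13. *Ly6e* and *Lgals9* had no interval and ranged from 5 to 10.

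The remaining genes differed among themselves. *Xaf1*, an antagonist of the apoptosis inhibitor XIAP, had heights of 7, 10, 16 and 10 with an interval over the gene in the knockout libraries alone, and ratios of 0.438 (0.152 to 1.12) and 1.00 (0.374 to 2.68). *Rtp4* had 4, 4, 7 and 8, with an interval in *Parp14*-/- + PJ34 alone. For both, every knockout value was at or above every wild-type value. *Ifi35* went the other way, with 21, 21.5, 16 and 14.5 and ratios of 1.31 (0.809 to 2.15) and 1.48 (0.905 to 2.46). Its tallest summits of 32, 30, 21 and 19 lay 1886 to 3241 bases before the start, in a region with other rows, and no summit lay at the gene. *Tor3a* had 10, 11, 11 and 8. *Znfx1*, an RNA helicase, had 24, 20.5, 24 and 28.5, with ratios of 1.00 (0.656 to 1.52) and 0.719 (0.469 to 1.09), and its tallest summits of 35, 27, 35 and 45 lay 205 to 221 bases before the start, at the start region it shares with another row.

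Leaving out every gene with another row in an active region that overlaps it kept 21 of the 36. At *Zbp1* and *Sp100*, both kept, 3 of 4 and 2 of 3 active regions overlapped the gene, and the others were not checked. Without PJ34, 16 of the 21 had a ratio below 1 and 2 above. The median was 0.714 and 4 were called lower, beside a median of 1.00 and 6.65% called lower over all rows. With PJ34 the median was 0.927, with 3 called lower, beside 1.13 and 3.38%. The rows of the whole table were not filtered for shared regions. The 21 genes include *Isg15*, *Samhd1*, *Trim21* and *Trim25*, and not *Daxx*, *Ifih1*, *Ddx58* or *Xaf1*.

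The genes that carry the interferon signal were mixed. Of 35 signalling genes, 28 had a row, and without PJ34 4 were called lower in *Parp14*+/+ and 2 higher, with a median ratio of 0.875. These are 14.3% and 7.14% of the 28, beside 6.65% and 8.16% of all rows. The 4 were *Irf7* with heights of 13, 24, 28 and 24, *Irf1* with 86, 110, 144 and 119, *Stat2* with 11, 21, 18 and 15, and the interferon-gamma receptor chain *Ifngr1* with 4.67, 7.33, 9.33 and 6.67. In each of them *Parp14*+/+ was the lowest library. No interval of any of the 4 libraries had its summit at *Irf1* or within 1000 bases of it. The phosphatases *Ptpn6*, with 32.5, 34.5, 22 and 29, and *Ptpn11*, with 7, 5.5, 3.75 and 4.5, were called higher. At *Ptpn6* and within 1000 bases of it there was likewise no summit in any library. With PJ34, *Irf8* (23, 16, 31 and 29) and the feedback inhibitor *Socs3* (27, 28, 36 and 41) were called lower in the wild type. *Il10rb*, *Tyk2*, *Irf2*, *Ikbke* and *Ifng* were called higher, and the median was 1.11. The 2 and 5 genes are 7.14% and 17.9% of the 28, beside 3.38% and 14.6% of all rows. Past a threshold with no interval in the higher library, and so not called, was *Tlr7* without PJ34 (2.5, 3.5, 4 and 3, ratio 0.625), as was *Irf3* with PJ34 (12, 16, 10 and 10, ratio 1.60). *Ifng*, the interferon made by T cells themselves, had heights of 22, 20, 16 and 14, lower in both knockout libraries than in both wild-type ones. The genes *Ifna1*, *Ifna2*, *Ifna4* and *Ifnb1* had no row, nor had *Il28ra*, *Mavs* and *Tlr3*.

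Guanylate-binding proteins and immunity-related GTPases, other families that interferons induce, had lower ratios. Of 13 with separate values, *Gbp1* and *Gbp2* counting once because their values are identical, 10 were called lower in *Parp14*+/+ without PJ34 and none higher, with a median ratio of 0.504 beside 0.746 for the 36 genes. With PJ34, 7 were called lower and 1 higher, with a median of 0.697 beside 1.00. The all-row shares for these calls are those given for the signalling genes. The calls without PJ34 included *Irgm1* with 31, 49, 91 and 75 and *Gbp4* with 50, 70, 96 and 95, the highest of the group. *Iigp1* had 5, 8, 18 and 13, and *Gbp6* had 4.33, 5, 15 and 8.33. The others were *Tgtp1*, *Ifi47*, *Gbp7*, *Gbp9*, *Igtp* and *Gbp2*. At the gene or within 1000 bases, summits of *Irgm1*, *Gbp4*, *Gbp6*, *Igtp* and *Ifi47* were higher in both knockout libraries. *Gbp2*, *Gbp7* and *Gbp9* had such summits in the knockout libraries alone, with 12 and 9 at *Gbp9*. *Iigp1* had 4 and 8 in the wild-type libraries and none in the knockout ones. *Tgtp1* had none in *Parp14*+/+ and 21, 17 and 15 in the others, so its order with PJ34 was turned. With PJ34 the calls were *Irgm1*, *Gbp6*, *Gbp7*, *Tgtp1*, *Iigp1*, *Ifi47* and *Gbp11*, with *Gbp8* higher. The difference between the groups was not tested, because members of a group are not replicates of a condition.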

How the data were processed

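RNA Polymerase II ChIP-Seq of Th2 cells was analysed in 4 conditions with 1 library each. By the study's methods the authors aligned reads of 36 nt with ELAND, took duplicates out, brought all libraries to an equal number of alignments, and called intervals per library with SICER against Input. SICER and the build mm9 are also named in the submitters' processing notes. They deposited the intervals with the height of each summit, and a gene table whose signal is the average peak height per gene and library. This signal is averaged over active regions merged across 8 libraries, so a gene can take the height of a neighbour. The table's 8 columns of B cell values (heights and interval flags of 4 libraries) were not used.

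Ratios were taken with no pseudocount and called above 1.4 or below 0.7 with an interval in the higher library. Because no condition has a replicate, there is no test and no p-value. Intervals are exact binomial (Clopper-Pearson) 95% limits on heights times active regions, and cover counting error only. Heights are mostly low (17 of 36 genes summed to at least 20 in their highest library), which leaves wide intervals. A row was accepted by name where its position overlapped the gene in GENCODE vM1 on NCBIM37. As an alternative it was found by position, on the same strand with at least 50% of the row inside the gene. The genes and lists were chosen with earlier results of these data known. Some genes of the signalling and marker lists are not reported here. Promoters printed are of the 4 genes with the highest mean height among those with the ISRE letters, plus Isg15. Every gene is named. Values are given for all with an interval in at least 1 library, ratios with limits for those with a summed height of at least 20, and other genes are given by range. Of the signalling and GTPase lists, genes past a threshold in a genotype pair are named. Oasl1, Isg15, Trim21, Xaf1 and Trim25 were given ratios after their values were seen. Alternatives covered scaling, row choice, thresholds, pseudocount, minimum height and the interval tracks. The functions were tested on simulated data. Python 3.11.15, NumPy 2.4.6, pandas 2.3.3 and SciPy 1.17.1 were used.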

Additional observations from a re-analysis of the deposited data

Results flagged for a closer look

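2 genes were called in one genotype pair, with an interval in the higher library, and lay on the other side of 1 in the other pair. The difference was not tested because each condition has 1 library. For *Trim25* the wild-type to knockout ratio was 0.667 without PJ34 and 1.12 with PJ34. For *Daxx* the ratios were 0.549 and 1.05, for a summit that lies outside the gene. A further 4 genes crossed 1 in the same way past a threshold but with no interval in the higher library: *Sp100* (0.667 and 1.05), *Bst2* (0.533 and 1.60), *Mx2* (0.6 and 1.67) and *Ifi203* (0.858 and 1.43).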

How the results depend on the processing

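No paired analysis was run, because each condition has 1 library and libraries with and without PJ34 are not replicates of a genotype. Leaving out a library was not possible, since its condition would have no library left. Values are for the 17 genes found by name, unless position is named, and higher or lower refers to the first library of a pair. As reported, 0 were higher and 5 lower in the untreated genotype pair (median ratio 0.818), 1 and 1 in the PJ34 genotype pair (1.05), 0 and 1 for PJ34 in *Parp14*+/+ (0.808), and 1 and 2 for PJ34 in *Parp14*-/- (1.10). The untreated median ran from 0.697 to 0.929 over the alternatives. A count or median not listed for an alternative differed little or not at all from the reported one. The last 4 alternatives described here, from the tallest summit at the gene on, were chosen after seeing the data.

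In the untreated genotype pair, finding rows by position gave 8 lower. The second tier (ratios past 1.2 or 0.83 with a height above 11) gave 1 higher and 7 lower. In the paper's own second tier the average peak value has to be above 2, not 11. Limits that exclude 1 gave 2 lower, the tallest interval 1 higher and 5 lower, and covered length 1 and 4 with a median of 0.929. In the PJ34 genotype pair, scaling to the median gene gave 0 higher and 2 lower, position 4 lower, asking for no interval 2 higher, the second tier 2 higher and 3 lower, limits that exclude 1 gave 0 and 0, a pseudocount of 1 gave 0 lower, the tallest interval 3 higher and 2 lower, and covered length 2 and 4. For PJ34 in *Parp14*+/+, position gave 3 lower, no interval 3, the second tier 4, limits that exclude 1 gave 0, a summed height of at least 20 gave 0, the tallest interval 1 higher and 2 lower with a median of 0.944, and covered length 1 and 2. For PJ34 in *Parp14*-/-, position gave 2 higher and 4 lower, the second tier 4 higher, limits that exclude 1 gave 0 lower, a summed height of at least 20 gave 1 lower, and the tallest interval 3 higher and 0 lower. The tallest interval and covered length had a value for 13, 14, 12 and 14 of the 17 genes in the 4 pairs, in this order. A summed height of at least 20 left 12, 11, 10 and 12. For the changed rules no share of all rows is given, so these counts are descriptions.

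The tallest summit at the gene gave 1 higher and 6 lower in the untreated pair and 2 and 1 in the PJ34 genotype pair. For PJ34 it gave 2 higher and 3 lower in *Parp14*+/+ (median 0.909), and 3 and 0 in *Parp14*-/-. It had a value for 12, 11, 10 and 11 of the 17 genes in these pairs. Leaving out genes that share an overlapping active region kept 7 of the 17, among them *Zbp1*, with 3 of its 4 active regions checked. Of these 7, 2 were lower in the untreated pair, 0 and 0 were called in the PJ34 genotype pair, and 0 higher and 1 lower in *Parp14*-/-. By position and without such genes, 21 were kept, of which 0 were higher and 3 lower in the PJ34 genotype pair. In *Parp14*+/+ 3 were lower (median 0.714), and in *Parp14*-/- 0 were higher (median 0.882). By position with no interval asked for, 14 were lower in the untreated pair, 5 higher and 4 lower in the PJ34 genotype pair, 10 lower in *Parp14*+/+ and 4 and 5 in *Parp14*-/-, beside 13.3%, 22.9% and 7.93%, 13.9%, and 16.2% and 8.86% of all rows. Apart from the rule or genes that each alternative changes, the cause was not tested. Among ratios called in a genotype pair, single ones turned for *Trim25* by covered length (1.27 without PJ34), *Daxx* by its summit at the gene (1.19 without PJ34) and *Ifih1* by its summit at the gene (1.25 with PJ34). Ratios outside that set turned too. Among them were *Pml* from *Parp14*-/- to *Parp14*-/- + PJ34 (summits at the gene of 10 and 6) and *Isg20* from *Parp14*+/+ to *Parp14*-/- (18 and 6). Low heights limit the precision: only 17 of the 36 genes reached a summed height of 20 in their highest library.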
